A study of Mus musculus with 9 samples.

Results

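A set of 10 genes that mark or regulate the passage from undifferentiated to differentiating spermatogonia were followed in the testes of 3-week-old mice of 3 Piwil4 genotypes. The genes are Zbtb16, Sall4, Lin28a, Nanos3, Neurog3, Sohlh1, Sohlh2, Kit, Kitl and Dmrtb1. They were taken by symbol from the expression table, which lists 22337 genes, and all 10 were present, each as 1 row.

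The series holds 9 whole testes, of which 3 were wild-type, 3 carried 1 knock-in allele (Piwil4 WT/R264W, heterozygous) and 3 carried the knock-in on both alleles (Piwil4 R264W/R264W, homozygous). In the knock-in alleles, made by CRISPR-Cas9 in C57BL/6 zygotes, an arginine of the PIWI protein PIWIL4 is replaced by tryptophan. The change is carried in every cell of the mouse and from the earliest stages, so the data hold no germ-cell-restricted or adult-onset version of it. All testes were collected at 3 weeks, no label gives a stage of spermatogenesis, and whether the knock-in mice descend from 1 founder is not given in the sources used here. Libraries were made with an mRNA-seq kit, and each testis has an estimated count and an FPKM value (fragments scaled to transcript length and library size) for each gene. In a whole testis, fewer cells of a type and less RNA per cell cannot be told apart.

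Spermatogonial stem cells give rise to progenitors that still resemble them but divide as connected chains. Retinoic acid then drives these progenitors into the differentiating state, in which they acquire the receptor tyrosine kinase KIT, divide a few more times and enter meiosis. In the young mouse the earliest germ cells differentiate and enter meiosis nearly together, the first wave of spermatogenesis. The paper describes this wave as lacking a self-renewing stage of spermatogonia. The makeup of a testis changes quickly with the progress of the wave. PIWIL4 acts in fetal and newborn germ cells, where it directs DNA methylation to transposons. The paper also places it in a few adult spermatogonia with stem cell activity. The study stained PLZF-positive spermatogonia and SOX9-positive Sertoli cells in testes of these genotypes, and whether the transcripts of such regulators differ between the genotypes is the question here.

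The estimated counts summed to 17.96 to 24.28 M per testis. A limit of 3 counts, the most that a count of 0 allows, corresponds to 0.122 to 0.171 CPM, the count per library size as scaled by TMM, which covers counting error only. The progress of the first wave was read from a spermatid score, the average log2 CPM over 19 round spermatid genes, none of them among the 10 regulators. It ran from 0.97 in Piwil4 WT/R264W testis 3 to 5.92 in wild-type testis 1, and the 3 genotypes overlapped in it (1.54 to 5.92 in wild-type, 0.97 to 4.98 in heterozygous and 2.56 to 5.75 in homozygous testes). Since the score comes from the same libraries as the regulators, a relation to it describes these 9 testes and is no independent staging. Piwil4 itself was at 1.76, 1.66 and 1.59 CPM in wild-type, 2.06, 1.12 and 2.10 CPM in heterozygous and 1.39, 1.18 and 1.02 CPM in homozygous testes, with the homozygous below the wild-type testes (log2 change -0.48 ± 0.23, SE, edgeR, adjusted p = 0.9998). The knock-in changes a codon and removes no exon, so this level does not check the genotype labels. No labels of a batch or date were given.

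The regulators spanned a wide range of abundance. Compared per transcript length, Dmrtb1 was by far the most abundant with a mean of 405 FPKM (335 to 479 over the 9 testes), and Kitl followed at 18.4 FPKM (12.2 to 24.2), Sohlh2 at 12.1 (7.71 to 15.7) and Kit at 7.39 FPKM (5.79 to 8.80). Sohlh1 had a mean of 4.03 FPKM, Lin28a of 3.84, Zbtb16 of 3.00 and Sall4 of 2.02 FPKM. Nanos3 and Neurog3 were at the foot of the order with 0.493 and 0.411 FPKM. The ranges over the 9 testes did not touch between Dmrtb1 and Kitl, between Kit and Sohlh1, or between Sall4 and Nanos3, while all other neighbours in this order overlapped. Within a single testis the order was more regular, since Kitl exceeded Sohlh2, Sohlh2 exceeded Kit and Zbtb16 exceeded Sall4 in all 9 testes, and Lin28a exceeded Zbtb16 in 7 of them.

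**Figure D1:**
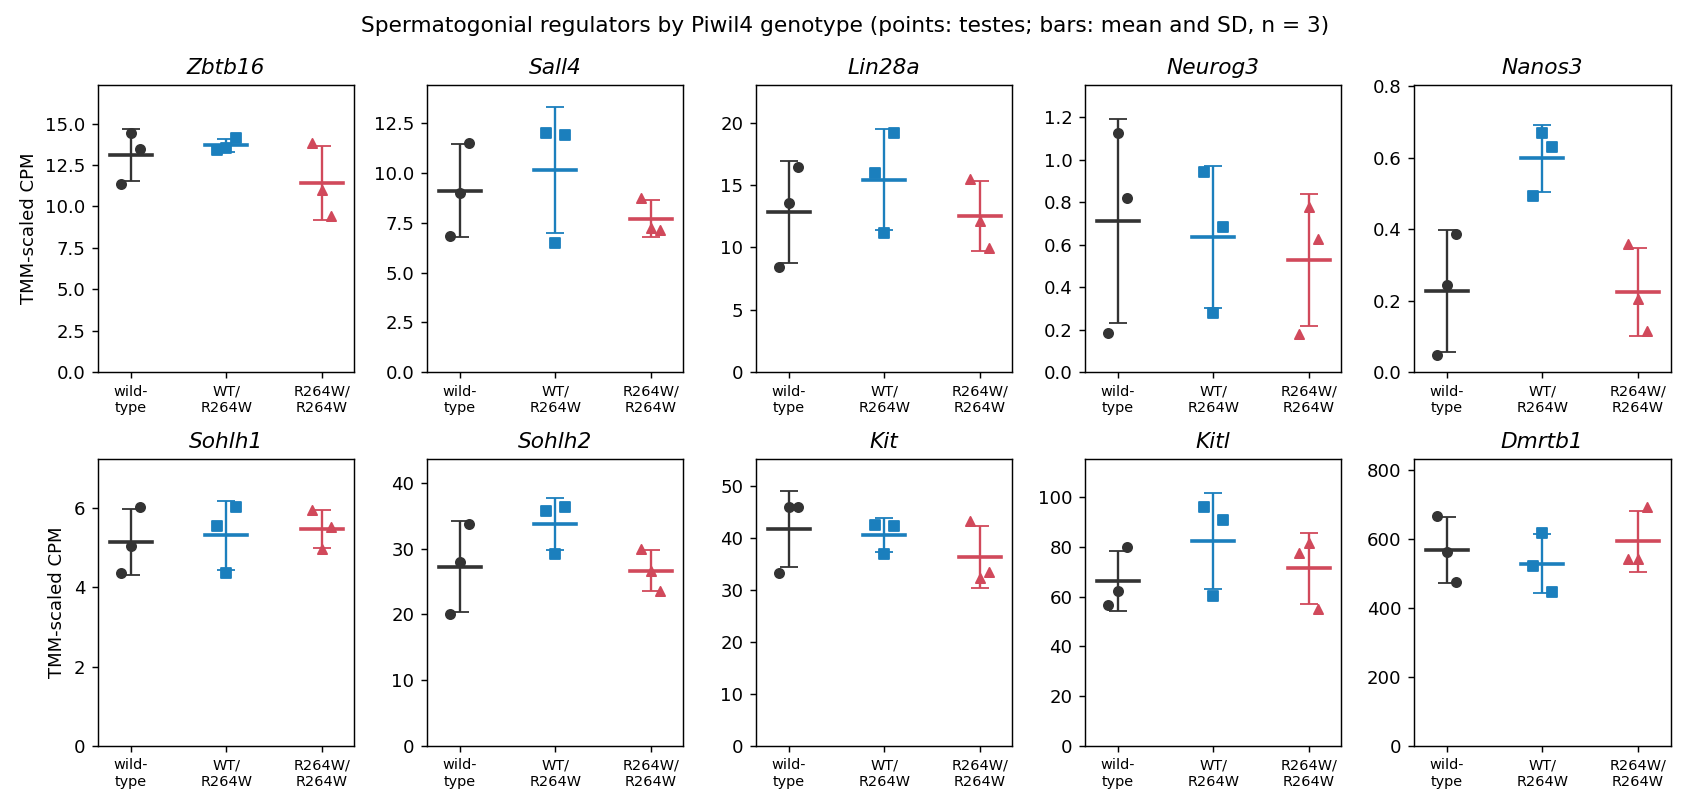
TMM-scaled CPM of the 10 regulators in each testis, by Piwil4 genotype. Points are testes, the horizontal bars are means and the error bars are SDs of 3 testes, and every axis starts at 0. The genotypes overlap for all regulators except Nanos3, whose 3 Piwil4 WT/R264W testes lie above the other 6.

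Zbtb16 encodes PLZF, a zinc-finger repressor that undifferentiated spermatogonia need for their maintenance. It was at 11.4, 14.4 and 13.5 CPM in wild-type, 13.4, 13.5 and 14.1 CPM in heterozygous and 13.8, 10.98 and 9.45 CPM in homozygous testes. The lowest values of Zbtb16 were in Piwil4 R264W/R264W testes 3 and 2, but testis 1 of that genotype was among the 3 highest, and the genotypes overlapped. Homozygous testes differed from wild-type by -0.20 ± 0.18 on the log2 scale (SE, edgeR quasi-likelihood test, adjusted p = 0.9998) and from heterozygous testes by -0.26 ± 0.16 (adjusted p = 0.948).

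Sall4, a zinc-finger factor of undifferentiated and differentiating spermatogonia, was at 6.82, 9.01 and 11.5 CPM in wild-type, 12.02, 6.48 and 11.9 CPM in heterozygous and 8.77, 7.22 and 7.11 CPM in homozygous testes. Heterozygous testes covered the whole range of Sall4, with the highest and the lowest value of the series. The homozygous testes lay within the wild-type range, and the difference of -0.24 ± 0.22 (log2, SE) did not pass the test (edgeR, adjusted p = 0.9998). An antisense gene, Gm14261, overlaps Sall4, and whether the counting used strand is not given in the sources used here.

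Lin28a encodes an RNA-binding protein that blocks let-7 maturation and marks undifferentiated spermatogonia. It was at 8.40, 13.6 and 16.5 CPM in wild-type, 15.9, 11.2 and 19.2 CPM in heterozygous and 15.5, 12.1 and 9.96 CPM in homozygous testes. The 3 genotypes overlapped, and their means were 12.8 ± 4.08, 15.4 ± 4.03 and 12.5 ± 2.78 CPM (SD, n = 3). Wild-type testis 1 was lowest and heterozygous testis 3 highest for Lin28a, and the log2 difference of homozygous from wild-type testes was -0.03 ± 0.28 (SE, edgeR, adjusted p = 0.9998). The antisense gene Gm13061 overlaps Lin28a.

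Nanos3 encodes a zinc-finger RNA-binding protein of primordial germ cells that is also found in progenitor spermatogonia. It rested on few reads, with 1, 5 and 8 counts in wild-type, 11, 12 and 12 counts in heterozygous and 8, 5 and 2 counts in homozygous testes. In CPM these were 0.0464, 0.245 and 0.386, then 0.493, 0.670 and 0.631, and then 0.358, 0.204 and 0.114. The heterozygous testes lay above all 6 others, and the wild-type and homozygous testes overlapped. Nanos3 was 1.35 ± 0.49 log2 units lower in homozygous than in heterozygous testes (log2 change -1.35, SE, edgeR, adjusted p = 0.948), a fit it entered only through the heterozygous counts. It was too low for the other fits, and without the filter on low counts it was 1.38 ± 0.68 log2 units higher in heterozygous than in wild-type testes (edgeR, adjusted p = 0.999). For both comparisons the exact two-sided permutation test gave p = 0.1, the smallest value that 3 testes against 3 allow.

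Neurog3, a basic helix-loop-helix (bHLH) factor of progenitors poised to differentiate, was similarly sparse. Its counts were 3.55, 23 and 17 in wild-type, 21, 5 and 13 in heterozygous and 4, 19 and 11 in homozygous testes. Each genotype thus held 1 testis with at most 5 counts of Neurog3 beside testes with 11 or more. The log2 difference of homozygous from wild-type testes, -0.42 ± 0.75 (SE), was smaller than its error. Neurog3 overlaps a gene on the opposite strand, Fam241b, and reads of both genes cannot be told apart without strand.

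Sohlh1 and Sohlh2 are partner bHLH factors that start differentiation, repress stem cell genes and induce Kit. Factors of this class bind E-boxes, with the letters CANNTG, and Kit is one of their known targets, so the 250 bases before the start sites of Sohlh1, Kit and Dmrtb1 are printed here with every CANNTG in capitals (RefSeq, build GRCm38.p6). They were read from chr2:25847249-25847498 on the minus strand, chr5:75574737-75574986 on the plus strand and chr4:107684231-107684480 on the minus strand, each ending just before the RefSeq start of the gene. The Sohlh1 and Dmrtb1 stretches lie outside the genes, and the end of the Kit stretch falls inside the gene as GENCODE draws it.
Sohlh1: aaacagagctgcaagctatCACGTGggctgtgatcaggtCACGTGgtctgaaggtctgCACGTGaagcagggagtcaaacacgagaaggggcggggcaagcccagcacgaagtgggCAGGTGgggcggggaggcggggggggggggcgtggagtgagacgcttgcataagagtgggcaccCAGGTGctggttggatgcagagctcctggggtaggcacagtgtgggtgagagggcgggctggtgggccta
Kit: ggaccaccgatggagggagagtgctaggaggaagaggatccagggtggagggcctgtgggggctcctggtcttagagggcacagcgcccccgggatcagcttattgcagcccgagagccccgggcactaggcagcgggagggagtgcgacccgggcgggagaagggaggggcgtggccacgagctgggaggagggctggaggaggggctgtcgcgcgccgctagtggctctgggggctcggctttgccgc
Dmrtb1: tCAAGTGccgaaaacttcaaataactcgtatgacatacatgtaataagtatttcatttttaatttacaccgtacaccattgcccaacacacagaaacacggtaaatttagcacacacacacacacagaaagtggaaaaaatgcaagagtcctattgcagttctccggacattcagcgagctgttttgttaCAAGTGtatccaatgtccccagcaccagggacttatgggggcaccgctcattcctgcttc
The Sohlh1 stretch held 5 E-boxes, 231, 211, 192, 134 and 70 bases before the start, and the 3 farthest from the start read CACGTG, a palindrome that is itself a CANNTG. Of 32851 promoter stretches of this length, 66.2% held at least 1 CANNTG and 1.15% held 5 or more, while 6.02% held at least 1 CACGTG and 0.0609% held 3 or more. The Kit stretch held none, and that of Dmrtb1 held 2, of the form CAAGTG, 249 and 60 bases before the start. RefSeq gives both Kit and Dmrtb1 a further start, 4 bases downstream for Kit, with no CANNTG before it, and 641 bases downstream for Dmrtb1, with 3, and the start nearest to that of GENCODE is the one shown. Of the other regulators, Nanos3 had 2, Neurog3 and Sohlh2 had 1 each, and Lin28a and Kitl had none. The motif reads the same on both strands as a class, so each match was counted once, and a match is a description of letters and not of binding. Zbtb16 and Sall4 had no entry.

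Sohlh1 was at 4.36, 5.04 and 6.03 CPM in wild-type, 5.56, 4.36 and 6.05 CPM in heterozygous and 5.95, 4.98 and 5.52 CPM in homozygous testes. Its group means, 5.15, 5.32 and 5.48 CPM, differed by less than the SD within any group. Sohlh2 was at 20.04, 27.96 and 33.8 CPM in wild-type, 35.8, 29.3 and 36.4 CPM in heterozygous and 29.9, 26.6 and 23.6 CPM in homozygous testes. The homozygous and heterozygous testes met only at 29.9 and 29.3 CPM of Sohlh2, and the homozygous mean was lower by a log2 change of -0.34 ± 0.14 (SE, edgeR, adjusted p = 0.948). Wild-type testis 1 was below every other testis in Sohlh2, and wild-type testis 3 above every homozygous one.

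The count ratio of Sohlh2 to Sohlh1 was 4.60, 5.54 and 5.60 in wild-type, 6.44, 6.72 and 6.03 in heterozygous and 5.03, 5.34 and 4.27 in homozygous testes. The log2 ratio was 0.40 lower in homozygous than in heterozygous testes (difference -0.40, exact permutation p = 0.1, n = 3 and 3) and 0.29 higher in heterozygous than in wild-type testes (exact permutation p = 0.1), each the smallest p of this design. The heterozygous testes lay above the other 6. Of all other genes set against Sohlh1 in the same way, 6.6% did not overlap between homozygous and heterozygous, 2.89% between heterozygous and wild-type and 5.26% between homozygous and wild-type testes, where Sohlh2 overlapped. This ratio was 1 of 6 between regulators that were compared, and it is named after its values were seen. The other 5 overlapped between all genotypes.

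KIT is the receptor that differentiating spermatogonia need to proliferate and survive, and its transcript is also made in Leydig cells and mast cells. Kit was at 33.3, 46.0 and 46.1 CPM in wild-type, 42.5, 36.9 and 42.4 CPM in heterozygous and 43.2, 32.3 and 33.5 CPM in homozygous testes. Every genotype held testes above 42 CPM and at least 1 below 37 CPM, and homozygous testes differed from wild-type by -0.20 ± 0.18 (log2, SE, edgeR, adjusted p = 0.9998). The 8 Leydig cell genes followed summed to 180 to 424 CPM in wild-type, 181 to 292 CPM in heterozygous and 283 to 447 CPM in homozygous testes. The 5 mast cell genes summed to at most 0.578 CPM, and Fcer1a among them was at 0 in all 9 libraries. The part of Leydig cells in the level of Kit was not tested.

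Kitl encodes the KIT ligand, which Sertoli cells present to the germ cells. It was at 56.7, 62.2 and 80.1 CPM in wild-type, 96.2, 60.4 and 90.6 CPM in heterozygous and 77.7, 81.6 and 55.1 CPM in homozygous testes. The highest values of Kitl were in Piwil4 WT/R264W testes 1 and 3 and the lowest in Piwil4 R264W/R264W testis 3, and the wild-type testes lay between. The log2 differences of 0.11 ± 0.19 (homozygous against wild-type) and 0.31 ± 0.21 (heterozygous against wild-type, SE) did not pass the edgeR test (adjusted p = 0.9998 for both).

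Dmrtb1 encodes DMRT6, which coordinates the switch from spermatogonial mitosis to meiosis. It was at 665, 563 and 474 CPM in wild-type, 522, 616 and 445 CPM in heterozygous and 541, 542 and 693 CPM in homozygous testes. The 3 genotypes overlapped, and the homozygous mean exceeded the wild-type mean by 0.06 ± 0.16 log2 units (SE, edgeR, adjusted p = 0.9998).

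Across the 3 comparisons no regulator was called at an adjusted p under 0.05, as for the genes as a whole. Between homozygous and wild-type testes 9 of the 10 passed the filter on low counts, all but Nanos3, 4 of the 10 were higher and 6 lower, and the median log2 change was -0.03 against -0.01 over all genes. In that comparison 0 of the 10 were called (0% of 15543 genes tested), 0 had an unadjusted p under 0.05 (1.26% of genes, 196) and 0 had groups that did not overlap (5.58% of genes). Between homozygous and heterozygous testes 8 of 10 were lower, with a median of -0.27 against 0.01 over all genes, 0 were called (0% of 15463 genes), 2 (Nanos3 and Sohlh2) had an unadjusted p under 0.05 (2.22% of genes, 343) and 1 (Nanos3) had groups that did not overlap (7.06% of genes). Between heterozygous and wild-type testes 7 of 10 were higher, with a median of 0.10 against -0.02, 0 were called (0% of 15413 genes), 0 had an unadjusted p under 0.05 (1.11% of genes, 171) and 1 (Nanos3, below the filter) did not overlap (5.36% of genes). DESeq2 called 1, 5 and 0 genes in the same order, none of them a regulator, with 154, 290 and 111 genes at an unadjusted p under 0.05. Nanos3 passed the filter between homozygous and heterozygous testes only through its heterozygous counts, so its place in these tallies supports no difference. The 3 comparisons share libraries. On simulated counts with the spread of these testes, 27.5% of 2-fold changes were recovered between homozygous and wild-type testes, so most changes of that size were not detectable with 3 testes a group.

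Each regulator was also set against Sertoli cells, the somatic cells that carry the germ cells, as the ratio of its count to the summed count of 11 Sertoli genes. The sum is not evenly weighted. Ctsl (378 to 549 CPM), Aard (287 to 479 CPM) and Inha (135 to 205 CPM) make up most of it, while Sox9 was at 21.3 to 38.1 CPM. Over the 9 testes these ratios varied least for Zbtb16, Sall4, Lin28a, Sohlh1, Sohlh2, Kit and Kitl, between 1.27-fold (Sohlh2) and 1.63-fold (Sall4), against 2.14-fold for Dmrtb1, 6.46-fold for Neurog3 and 11.5-fold for Nanos3. The Sertoli genes themselves summed to 1077 to 1479 CPM in wild-type, 1357 to 1557 CPM in heterozygous and 1235 to 1419 CPM in homozygous testes, with all 11 higher in the heterozygous than in the wild-type mean and none called, and the part of this in the ratios was not tested.

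Kit relative to Sertoli genes was highest in the wild-type testes, with ratios of 0.0309, 0.0332 and 0.0312, against 0.0273, 0.0272 and 0.0274 in heterozygous and 0.0305, 0.0230 and 0.0271 in homozygous testes. Both knock-in groups lay below every wild-type testis, by log2 differences of -0.22 (heterozygous) and -0.25 (homozygous), each with an exact permutation p of 0.1. Sall4 relative to Sertoli genes was also lower in every homozygous testis (0.00618, 0.00514 and 0.00576) than in every wild-type testis (0.00633, 0.00651 and 0.00780), a log2 difference of -0.27 with an exact permutation p of 0.1, while the heterozygous testes (0.00772, 0.00477 and 0.00772) lay on both sides. Sohlh2 was lower in every homozygous than in every heterozygous testis (log2 difference -0.21, exact permutation p = 0.1), as was Nanos3 (-1.41), and Nanos3 was higher in every heterozygous than in every wild-type testis (1.67). Of all genes tested, 7.17% had such ratios that did not overlap between homozygous and wild-type testes, where 2 of 10 regulators did, 8.64% between homozygous and heterozygous testes, again with 2 of 10, and 9.47% between heterozygous and wild-type testes, again with 2 of 10. The ratio of Kit to Sox9 alone, a single Sertoli gene, overlapped in every comparison, with a log2 difference of -0.02 between homozygous and wild-type testes, and that of Sall4 to Sox9 was -0.04. Against Sox9, Sohlh2 no longer stood apart (-0.01), and Sohlh1 (0.38) and Nanos3 (-1.22) did not overlap between homozygous and heterozygous testes, 2 of 10 regulators where 5.3% of genes did not. Nanos3 was the 1 of 10 that did not overlap between heterozygous and wild-type testes (2.01% of genes). Between homozygous and wild-type testes 0 of 10 did not overlap (2.85% of genes). For either denominator, Nanos3 was below the filter between heterozygous and wild-type testes and is not among the genes of that share. Between homozygous and heterozygous testes it passed the filter only through its heterozygous counts. Sox9 itself differed by -0.32 ± 0.20 between homozygous and heterozygous testes (log2, SE, edgeR, adjusted p = 0.948), which enters every ratio to it. For Zbtb16 the log2 ratio to the Sertoli genes differed by -0.26 between homozygous and wild-type testes (exact permutation p = 0.2), and the ratio of Zbtb16 to Sox9 by -0.03 (exact permutation p = 0.9).

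**Figure D2:**
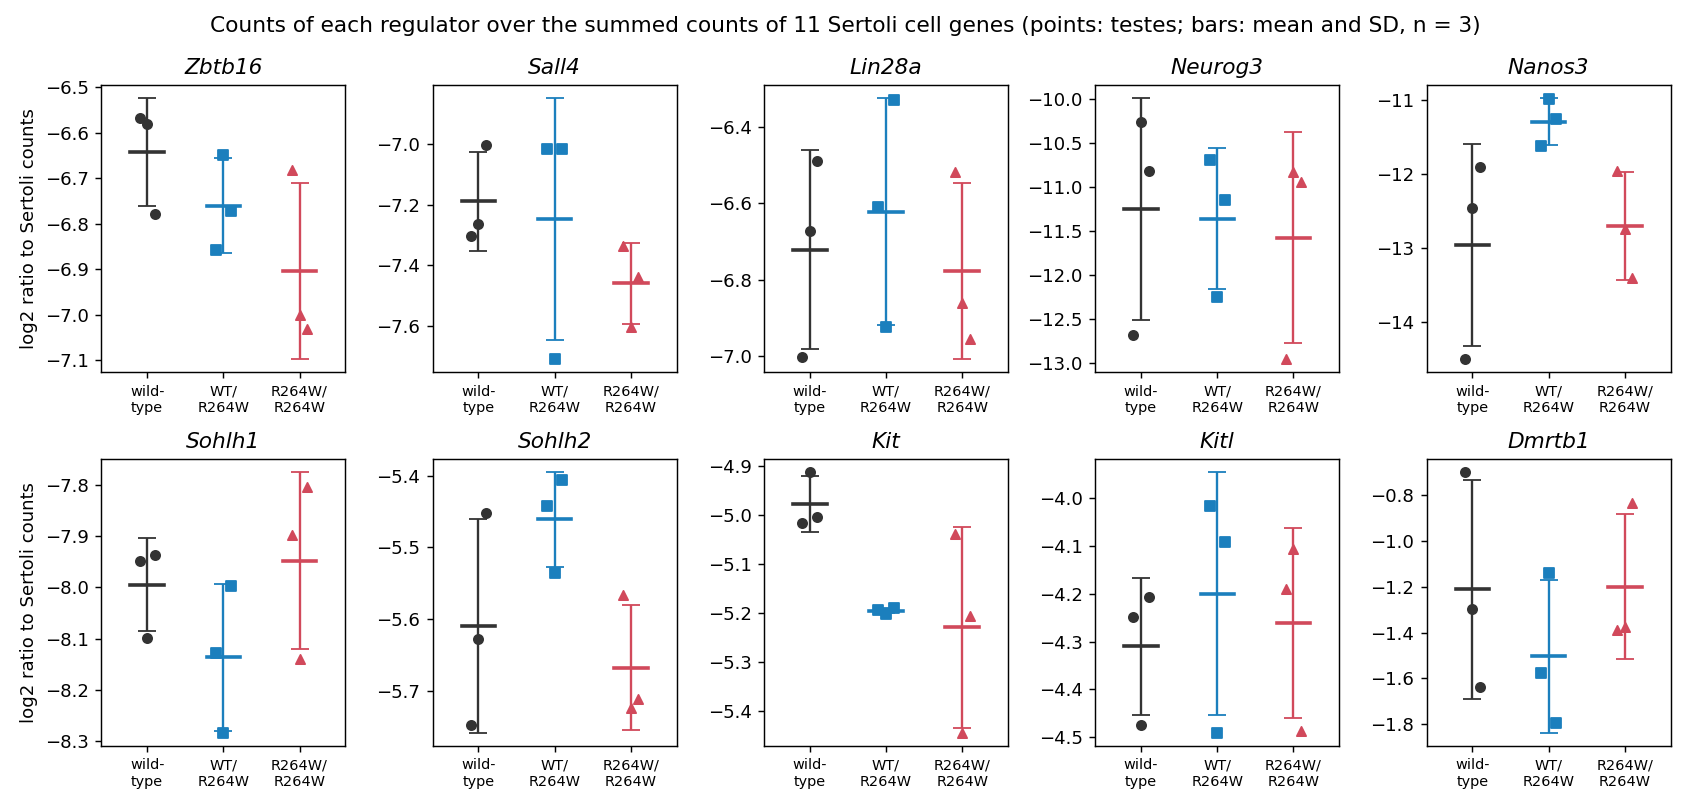
Log2 ratio of the count of each regulator to the summed count of 11 Sertoli cell genes in each testis, by Piwil4 genotype. Points are testes and bars are the mean and SD of 3 testes, and each panel has its own scale. The wild-type testes lie above all knock-in testes for Kit, and above the 3 homozygous testes for Sall4.

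Set against the spermatid score, 9 regulators had fitted slopes below 0 and 1, Dmrtb1, above 0. In a fit over the 9 testes with genotype as a term, Lin28a fell by 0.17 ± 0.04 log2 units per unit of the score (SE, edgeR, adjusted p = 0.0106) and Sohlh2 fell by 0.10 ± 0.03 (adjusted p = 0.0335), while Dmrtb1 rose by 0.10 ± 0.02 (adjusted p = 0.00688). Multiplied over the range of the score, the fitted slopes within genotype come to 0.567-fold for Lin28a, 0.711-fold for Sohlh2 and 1.40-fold for Dmrtb1, which are fitted values and not ratios between single testes. Of the 10 regulators, 1 was called rising, where 17.7% of the 15771 genes tested were, and 2 were called falling, where 8.72% were. The other 7 did not pass, with slopes of -0.07 ± 0.03 for Kit (adjusted p = 0.0826), -0.07 ± 0.03 for Zbtb16 (0.130), -0.08 ± 0.04 for Kitl (0.175), -0.10 ± 0.05 for Sall4 (0.192) and -0.06 ± 0.04 for Sohlh1 (0.313). Nanos3, fitted without the filter, had the steepest slope, -0.32 ± 0.18 (adjusted p = 0.218), and Neurog3 had -0.08 ± 0.17 (adjusted p = 0.760). The median slope of the 10 was -0.08, against -0.01 over all genes.

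**Figure D3:**
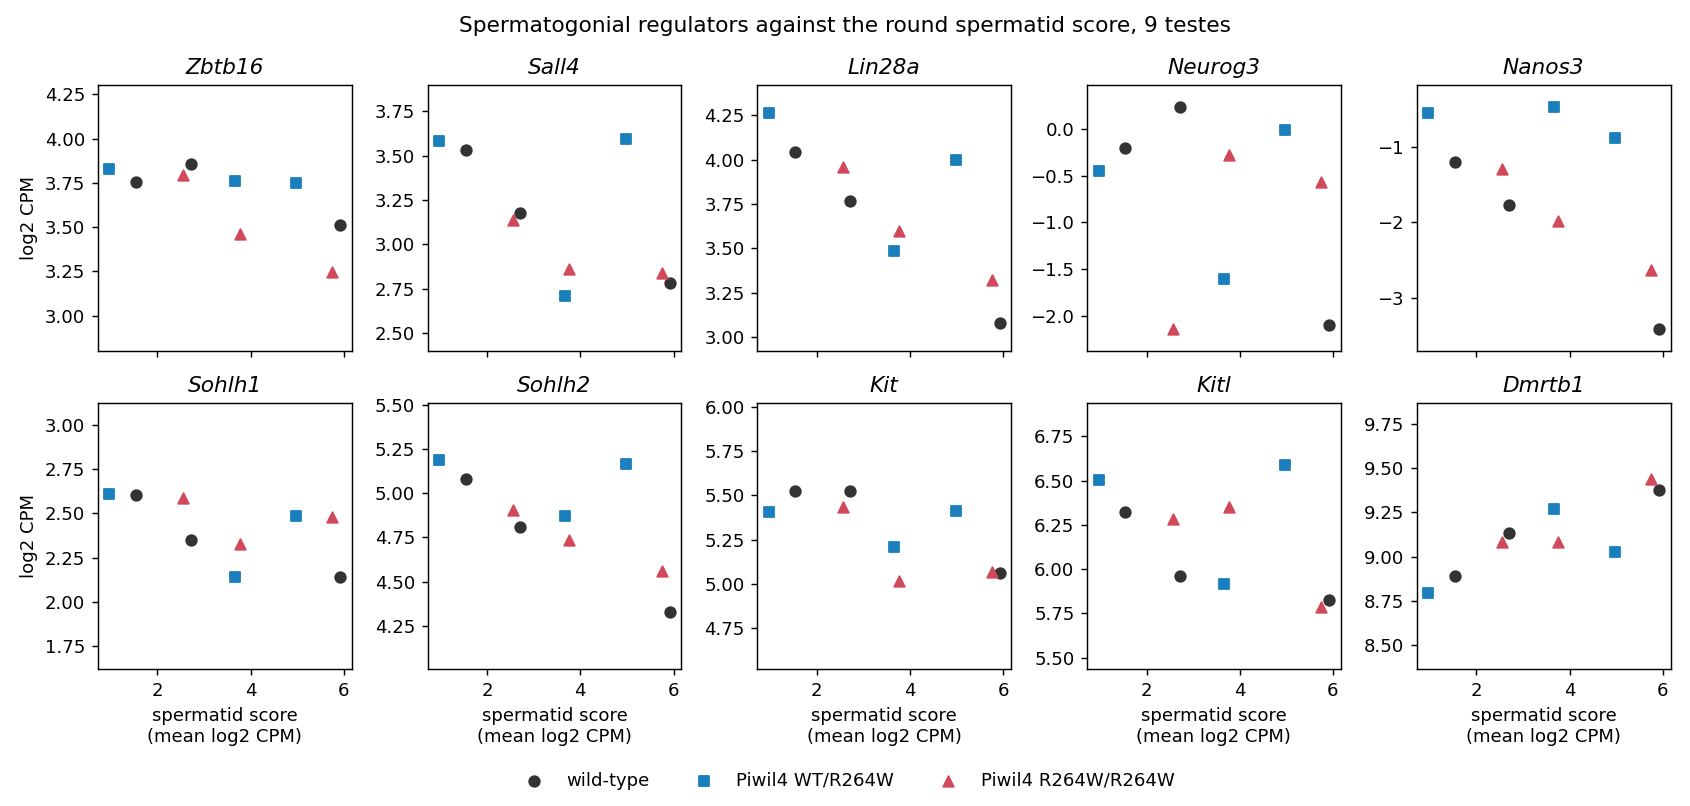
Log2 CPM of the 10 regulators (vertical axes) against the spermatid score, an average over 19 spermatid genes in log2 CPM (horizontal axes), with 1 point per testis. Lin28a and Sohlh2 are lowest in the wild-type testis at 5.92, Dmrtb1 is lowest at the left, and the Piwil4 WT/R264W testis at 4.98 stands above its neighbours for Sall4, Lin28a, Sohlh2 and Kitl.

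The slopes rested on few testes. Wild-type testis 1, with the highest score, was among the 3 lowest in all 9 regulators other than Dmrtb1, and Piwil4 R264W/R264W testis 3, next in score, in 7 of the 9. At the other end, Piwil4 WT/R264W testis 3 was among the 3 highest in 7 of the 9 and lowest for Dmrtb1. Piwil4 WT/R264W testis 1 went the other way, since it had the third highest score of the series yet was among the 3 highest testes in 6 of the 9 and highest for Sall4 and Kitl. Without it, Sall4 (-0.17, adjusted p = 0.00798), Kit (-0.10, adjusted p = 0.00773) and Kitl (-0.14, adjusted p = 0.00225) were called falling too, and genes called falling went from 1375 to 2796. Without wild-type testis 1 no regulator was called, with adjusted p values of 0.117 for Lin28a, 0.322 for Sohlh2 and 0.0552 for Dmrtb1. Lin28a also missed the threshold narrowly without wild-type testis 3 (0.05004), Dmrtb1 without Piwil4 WT/R264W testis 3 (0.0545), and Sohlh2 without wild-type testis 3 (0.148) or any of the Piwil4 R264W/R264W testes 1, 2 and 3 (0.0750, 0.0510 and 0.0901). The number of genes called falling went to 394 without wild-type testis 1, 384 without wild-type testis 3, 720 and 434 without Piwil4 R264W/R264W testes 1 and 3, and 630 without Piwil4 WT/R264W testis 3. Genes called rising went from 2785 to 1737 without wild-type testis 1. Without the testes at both ends of the score, wild-type testis 1 and Piwil4 WT/R264W testis 3, no regulator was called and 1064 genes were.

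**Figure D4:**
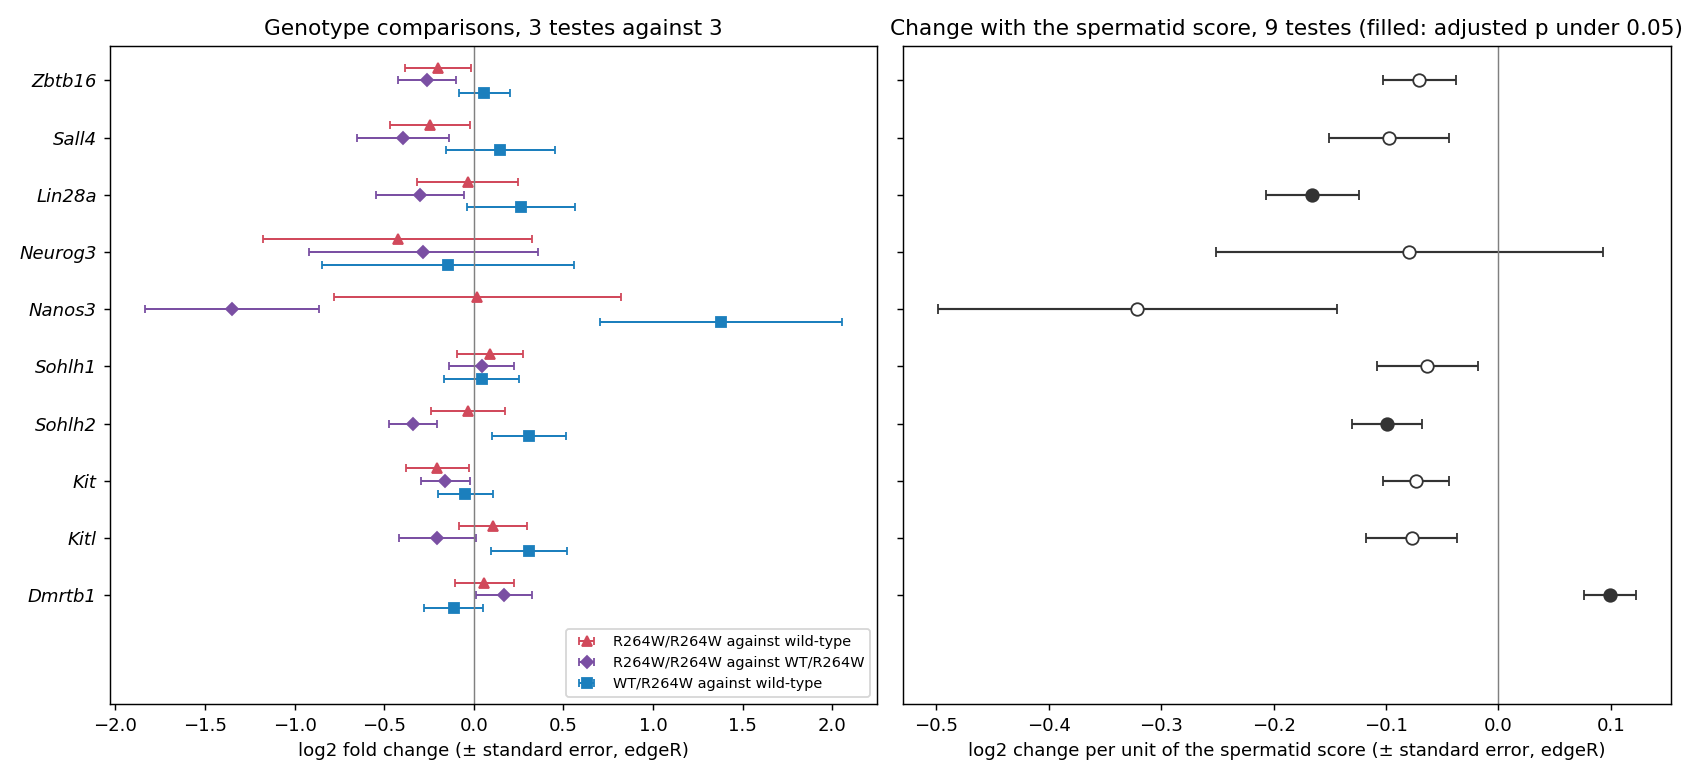
Left, log2 fold changes of the 10 regulators in the 3 genotype comparisons, and right, their log2 change per unit of the spermatid score over 9 testes, with standard errors from edgeR. No genotype difference passed an adjusted p of 0.05, and the filled points on the right mark Lin28a and Sohlh2, which fell, and Dmrtb1, which rose.

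Other genes of the same steps were followed as lists. Of 18 further genes of the progenitor to differentiating transition, all tested, 2 fell with the score, Dazl (-0.14 ± 0.02, edgeR, adjusted p = 0.000162), which encodes a germ cell RNA-binding protein, and Taf4b (-0.10 ± 0.03, adjusted p = 0.0184), which encodes a subunit of a germ cell transcription complex, and none rose. Of 11 genes of undifferentiated spermatogonia, 6 were tested and 1 rose, Gfra1 (0.15 ± 0.05, adjusted p = 0.0460), which encodes the receptor for GDNF on stem cells, and Etv5 had the next smallest p with -0.07 ± 0.04 (adjusted p = 0.176). Of 10 early meiotic genes, 5 fell and 1 rose, where Meiob fell by 0.12 ± 0.02 (adjusted p = 0.00153) and Rec8, a meiotic cohesin, rose by 0.33 ± 0.03 (adjusted p = 3.68e-07). Of 10 pachytene spermatocyte genes, 6 rose and none fell, among them Pgk2 (0.22 ± 0.02) and Adam3 (0.15 ± 0.02). Of the 11 Sertoli genes, 4 fell, Cst9 (-0.07 ± 0.02), Aard (-0.09 ± 0.02), Wt1 (-0.08 ± 0.02) and Fshr (-0.14 ± 0.05), and 1 rose, Rhox5 (0.11 ± 0.04). Of the 8 Leydig genes 2 rose, Cyp17a1 (0.76 ± 0.16) and Cyp11a1 (0.32 ± 0.07), and 1 each of the 6 peritubular (Actg2, 0.73 ± 0.04, and Tagln was next with -0.08 ± 0.03) and the 8 macrophage genes (Csf1r, 0.10 ± 0.03, and Mrc1 with 0.06 ± 0.03 was next) rose, while of 6 endothelial genes none was called (Pecam1 -0.06 ± 0.06, Tie1 -0.06 ± 0.07).

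In the genotype comparisons none of these genes was called. Between homozygous and wild-type testes 15 of the 18 transition genes were lower, with a median log2 change of -0.09 and the smallest p values for Egr4 (-0.21 ± 0.11) and Dnmt3b (-0.23 ± 0.18), both with an adjusted p of 0.9998 in edgeR. Between homozygous and heterozygous testes 14 of 18 were lower, with a median of -0.22, and Rarg, a retinoic acid receptor, had the smallest p (-0.45 ± 0.19, adjusted p = 0.948), followed by Dmrt1 (-0.35 ± 0.15). Between heterozygous and wild-type testes 13 of 18 were higher, with a median of 0.14. The 6 tested genes of undifferentiated spermatogonia had medians of -0.04, -0.01 and -0.02 in the same order, with Ret, the co-receptor for GDNF, at -0.62 ± 0.20 between homozygous and heterozygous testes (edgeR, adjusted p = 0.948). The spermatid genes had medians of 0.12, 0.57 and -0.36 in these comparisons, over 19, 19 and 18 genes tested, each opposite in sign to the median of the regulators, and the part of spermatid RNA in their differences was not tested beyond the fit with the score as a term, in which no regulator was called.

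A further measure came from comparing the deposited quantities of each testis. In principle, an FPKM value is a count divided by the library total and by a transcript length. A deposited count and FPKM thus give a length per read, the length at which both agree. StringTie made the FPKM values, and whether it used these counts is not given in the sources used here. The length can vary with the transcripts present or with how reads were assigned in either quantity, which cannot be told apart here. For Sohlh1, Sohlh2, Kit and Dmrtb1 this length was the same in all testes to within 1.01-fold (1.32, 2.43, 5.37 and 1.38 kb at the median). Over the 11389 genes with at least 50 counts and an FPKM of at least 1 in every library, which include 8 of the regulators, the median ratio of the highest to the lowest testis was 1.04-fold.

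Among the 8 regulators Sall4 varied most, by 1.40-fold between the highest and the lowest testis. Its length per read was 5.24, 5.07 and 5.22 kb in wild-type, 4.74, 4.36 and 4.31 kb in heterozygous and 3.73, 3.94 and 3.83 kb in homozygous testes. The 3 genotypes did not overlap and stood in the order of the number of knock-in alleles, a pattern seen, in either direction, in 13 of the 11389 genes (0.114%) and in 1 of the 8 regulators. GENCODE (build GRCm38) lists, among 7 Sall4 transcripts, 2 with 4 exons, of 5.07 and 3.74 kb, which share 3 exons and differ in 1. The remaining Sall4 transcripts are of 0.328 to 2.53 kb. Wild-type values of 5.24 and 5.22 kb exceeded the longest listed transcript, so a length per read is not simply an average of the listed lengths. It does not tell which transcripts were mixed. Homozygous testes were lower than wild-type by a log2 difference of -0.43 ± 0.04 (SE, limma over all 11389 genes and 9 libraries), rank 2 by p among all genes, which did not pass (limma, adjusted p = 0.0900), and heterozygous testes lay at -0.21 ± 0.04 (adjusted p = 0.488). No gene was called in any of the 3 comparisons of lengths (0% each, with 419, 372 and 496 genes at an unadjusted p under 0.05 in limma). Sall4 was singled out after its values had been seen. Without Piwil4 WT/R264W testis 1, which is in neither compared group, its adjusted p in limma was 0.0309. With only the homozygous and wild-type testes in the fit the adjusted p was 0.237, and no other alternative passed. On the level scales, Sall4 had a higher mean FPKM in homozygous (2.003) than in wild-type testes (1.76) but a lower mean CPM (7.70 against 9.12). Which transcripts were present was not tested, since the table holds 1 value per gene. How reads were assigned for the counts and for the FPKM values was not tested either.

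**Figure D5:**
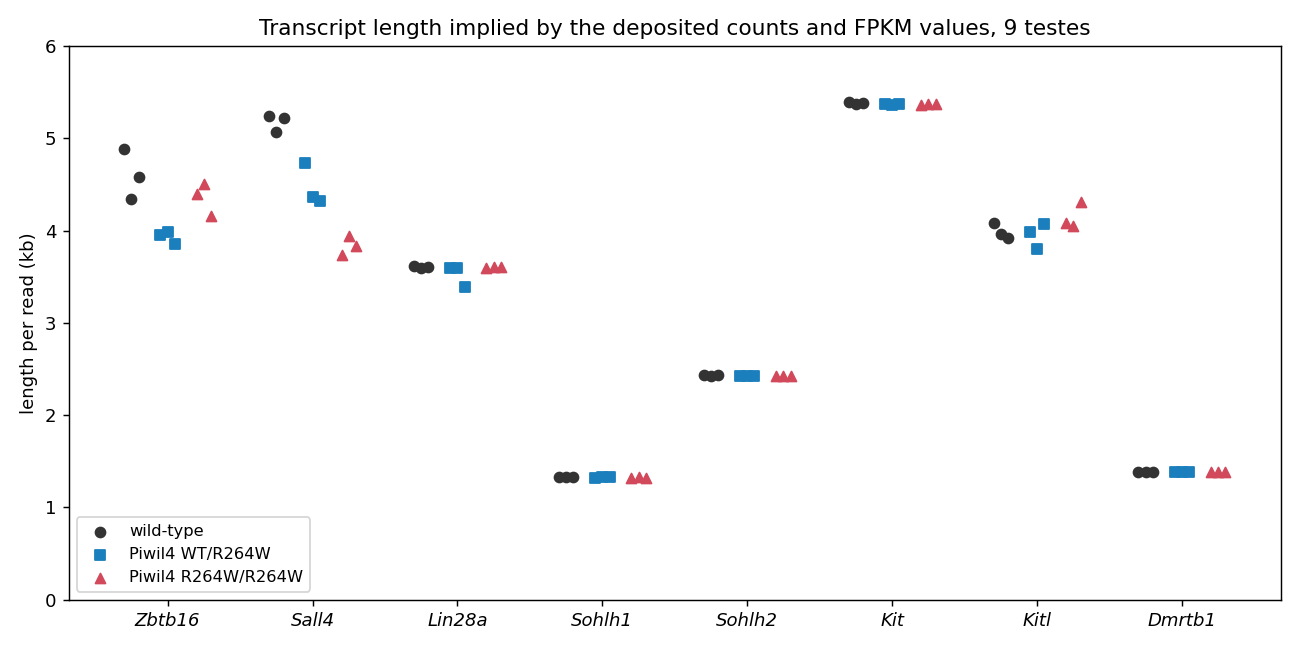
Length per read, at which the deposited count and FPKM value of each testis agree (vertical axis, kb), for the 8 regulators with at least 50 counts and an FPKM of at least 1 in every library. Points are testes by genotype, and Sall4 steps down from 5.07 to 5.24 kb in wild-type to 3.73 to 3.94 kb in Piwil4 R264W/R264W testes.

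Zbtb16 also varied in length per read, with 4.34 to 4.89 kb in the wild-type, 3.86 to 3.99 kb in the Piwil4 WT/R264W and 4.15 to 4.50 kb in the Piwil4 R264W/R264W testes. Here the heterozygous testes lay below both other genotypes, by a log2 difference of -0.23 ± 0.05 from wild-type (limma, adjusted p = 0.488). Homozygous testes lay 0.15 ± 0.05 log2 units above heterozygous ones (SE, limma, adjusted p = 0.997). The share of all genes with such a separation in length was not counted. Lin28a and Kitl varied by 1.07-fold and 1.13-fold, and the genotypes overlapped for Kitl. For Lin28a the heterozygous testes (3.39 to 3.59 kb) lay below the wild-type testes (3.60 to 3.61 kb), and the homozygous testes overlapped both. The log2 difference of heterozygous from wild-type testes was -0.03 ± 0.02 (SE, limma, adjusted p = 0.499). That separation was also not set against the share of all genes. Separations occurred too in regulators of nearly constant length. Kit was at 5.364 to 5.367 kb in heterozygous and 5.368 to 5.394 kb in wild-type testes. Dmrtb1 was at 1.3795 to 1.3811 kb in homozygous and 1.3818 to 1.3867 kb in wild-type testes. Without the share of all genes, the separations of Zbtb16 and Lin28a support no difference.

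For 4 of the regulators the genes with the most similar log2 CPM over the 9 testes were searched among 14473 genes with a mean of at least 1 CPM (14474 for Neurog3). Zbtb16 was most like Pus1 (Pearson r = 0.967), Klf6 (0.954) and Ntn4 (0.952), and Kit was most like Tgfb3 (0.970), Nyap1 (0.967) and Mllt6 (0.966). Kitl was most like Ddx19a (0.974), Magec2 (0.972) and Ddx3x (0.972), and Neurog3 like Cabp1 (0.942), Pcca (0.940) and Zscan18 (0.915). These are descriptions over 9 points that share libraries and the spread in spermatid RNA, and none of the 12 genes is another regulator of the set.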

How the data were processed

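RNA-seq of whole testes from 9 mice aged 3 weeks (3 per genotype) was analysed, with groups taken from the sample labels. The authors filtered reads with fastp (version 0.18.0) and ran StringTie (version 1.3.1), per the submitters' notes, which name build mm39. The deposited table holds FPKM values scaled by the authors to length and library, and estimated counts, not normalized, of which 89.2% were whole numbers. The aligner and counting tool are not given in the sources used here. The table has no coordinates, and positions and promoters are those of GENCODE and RefSeq on GRCm38.

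Estimated counts were rounded and tested in R (version 4.3.3) with edgeR (version 4.0.16): filterByExpr, TMM, quasi-likelihood test, two-sided, Benjamini-Hochberg over all genes tested, called at an adjusted p under 0.05. Each genotype comparison used the 6 libraries concerned. The score fit used 9 libraries and a genotype term, and log2 CPM a prior count of 1. Nanos3, where filtered out, was read from an unfiltered fit. Single values were compared by exact two-sided permutation, which gives no p under 0.1 for 3 against 3. The labels do not say whether replicates are separate litters, and p-values measure the spread between these testes. No 2 testes of a genotype agreed within sampling noise (chi-square of at least 7.30 per gene). Length per read was compared with limma (version 3.58.1) over 9 libraries, an analysis added after the values had been seen. DESeq2 (version 1.42.0) and limma on log2(FPKM + 0.1) and log2(FPKM + 1), where the average FPKM reached 0.5, were alternatives. The edgeR fits were tested on simulated counts (15449 genes, 200 changed 2-fold): between homozygous and wild-type testes 55 (27.5%) were recovered, with 5 false calls. For the score fit (15689 genes) 145 (72.5%) were recovered.

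The members and lists were chosen with earlier results of these data known. Named were all 10 members, 3 most similar genes for each of 4 members, the 2 genes of smallest p in a list and any called one where at most 5 were called, Sox9 and Piwil4. E-boxes were searched as a description added after the expression values had been seen. Library preparation used an mRNA-seq kit, per the labels.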

Additional observations from a re-analysis of the deposited data

How the results depend on the processing

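No regulator was called in a genotype comparison under any alternative. Genes called went from 0 to 1 (homozygous against wild-type) and from 0 to 5 (homozygous against heterozygous) with DESeq2. With the score, genes called were 4160 and, with each library left out in turn, 2131 to 6226 (rising 1737 to 3430, falling 384 to 2796). Without the testes farthest from the median score 1064 were called (1025 rising, 39 falling). Falling genes were 2420 with limma on log2(FPKM + 1) and 2313 with a pachytene score, and rising genes were 1840 with limma on log2(FPKM + 0.1). Beyond the libraries named in the report, limma took Dmrtb1 to adjusted p values of 0.0739 and 0.0572 and called Zbtb16 (0.0436 and 0.0419), the pachytene score called Sall4 (0.0289) and Kitl (0.0123), and the fit without genotype called Kit (0.0414). The cause was not tested.

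Correlations of the deviations of same-numbered testes from their genotype means ran from -0.73 to 0.78. These deviations share the spread in spermatid RNA, so they cannot tell whether the replicate numbers pair testes, and the labels do not say. With the number as a replicate block 0 genes were called in each genotype comparison, 3405 with the score (877 falling), and Sohlh2 had an adjusted p of 0.0608. The block called no further regulator.

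Reversed log2 changes were all of values that had not been called. Homozygous against wild-type, Sall4 was 0.20 and 0.13 with limma (pseudocounts 0.1 and 1), and with the score as covariate Lin28a was 0.10 and Sohlh2 0.0494. Heterozygous against wild-type, Kit was 0.00845 and 0.00543 with limma (pseudocounts 0.1 and 1). The slope of Neurog3 was 0.0385 with the block and 0.50 without the farthest testes. With each library left out in turn, Lin28a ran from -0.26 to 0.19, Neurog3 from -0.88 to 0.0795, Sohlh1 from -0.0139 to 0.22, Sohlh2 from -0.21 to 0.15 and Dmrtb1 from -0.0729 to 0.19 (homozygous against wild-type). Neurog3 ran from -0.69 to 0.14 and Sohlh1 from -0.0798 to 0.15 (homozygous against heterozygous). Zbtb16 ran from -0.0296 to 0.16, Sall4 from -0.0181 to 0.40, Neurog3 from -0.60 to 0.36, Sohlh1 from -0.0610 to 0.18, Kit from -0.18 to 0.0525 and Dmrtb1 from -0.23 to 0.0233 (heterozygous against wild-type). The slope of Neurog3 ran from -0.25 to 0.18. The Sall4 length difference kept its sign in all 11 alternatives, chosen after seeing the data, with adjusted p values from 0.0309 to 0.300. Depth limits Nanos3 and Neurog3, with at most 23 counts a library.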
